A study of Mus musculus with 6 samples.

Results

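The genes described here belong to the integrated stress response, in which the translation initiation factor eIF2 is phosphorylated and the transcription factor ATF4 is made. They were taken from a fixed list of 33 genes: ATF4 and its partner and target genes, eIF2 kinases, phosphatase subunits that reverse the phosphorylation, and enzymes of serine and one-carbon metabolism. Of the 33, 32 had a probe set of their own on the array, among 41345 probe sets and 22180 genes so named. Pycr1, an enzyme of proline synthesis, is not listed in the probe annotation used here and was not analysed. Each of the 32 genes had a single probe set.

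The livers came from 6 mice in which CREB-H, encoded by Creb3l3, was knocked out (allele Creb3l3tm1.1Sad/J). One group of 3 received AAV-CREB-H-ΔTC, a liver-targeting adeno-associated virus that carries the active form of CREB-H. The other group of 3 received AAV-GFP, the same kind of virus with green fluorescent protein. Mice were 8 weeks old on a normal diet, livers were taken 2 weeks after an intraperitoneal injection, and total RNA of each liver was hybridised to 1 array. Both groups therefore lack the endogenous factor and carry a virus, and no wild type or uninjected mouse is among the 6. The sources used here do not name the promoter of the vector.

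CREB-H is itself an endoplasmic reticulum membrane protein that stress in that compartment can release. The integrated stress response is a neighbouring pathway: the kinases PERK, GCN2, HRI and PKR sense different stresses and phosphorylate eIF2, general translation falls, and translation of the Atf4 messenger increases. ATF4 then pairs with C/EBP and other leucine-zipper proteins on composite DNA elements and activates genes for amino acid uptake and synthesis, transfer RNA charging and feedback control. In liver this programme is known from amino acid shortage, mitochondrial stress and defects of protein folding. Arrays read RNA, so phosphorylation of eIF2 and translation of Atf4 were not measured.

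The composite element is shown first because it is a known binding element of ATF4 with C/EBP proteins. Promoter windows from 250 bases before to 50 bases after the gene start (RefSeq, GRCm38.p6) were found for 28 of the 33 genes, 5 of them with 2 windows. The core TGATGNAA, searched on both strands, was present in 7 of these 28 genes (25%), against 1219 of all 27025 genes with a window (4.51%). The windows below are written 5′ to 3′ on the strand of the gene, with the match in capitals and 10 bases on either side. Where the core lies on the opposite strand it reads TTNCATCA.
Asns, chr6:7693215-7693242, minus strand: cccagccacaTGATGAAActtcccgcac
Atf3, chr1:191183426-191183453, minus strand: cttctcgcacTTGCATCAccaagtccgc
Chac1, chr2:119351039-119351066, plus strand: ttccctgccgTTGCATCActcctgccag
Nupr1, chr7:126625563-126625590, minus strand: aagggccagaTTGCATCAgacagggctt
Pycr1, chr11:120643834-120643861, minus strand: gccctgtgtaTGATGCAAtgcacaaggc
Slc1a4, chr11:20332700-20332727, minus strand: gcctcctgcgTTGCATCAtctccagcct
Trib3, chr2:152344029-152344056, minus strand: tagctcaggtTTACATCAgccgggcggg

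The match began 23 bases upstream of the start in Asns, 110 in Atf3 and in Nupr1, 193 in Chac1, 103 in Pycr1 and 4 in Slc1a4, and 14 bases downstream of it in Trib3. In 5 of the 7 the match has the letters TTGCATCA or their complement TGATGCAA. A further pair of elements was searched in the same way. The cAMP response element TGACGTCA, a site of CREB and ATF proteins, was present in Ppp1r15a alone (1 of 28, 3.57%, against 2.03% of all genes). The letters TGACGTGG were present in Vegfa alone (3.57%, against 0.714%).
Ppp1r15a, chr7:45526263-45526290, minus strand: gcctctccggTGACGTCAgcacagcgcc
Vegfa, chr17:46025358-46025385, minus strand: gagtgcgtgcCCACGTCAgagagcaaca

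A match describes the letters only, and other elements or sites outside the window were not searched. For Chac1, whose signal is described below, the whole 250 bases before the start are given, with the composite core in capitals.
Chac1 upstream, chr2:119350992-119351241, plus strand: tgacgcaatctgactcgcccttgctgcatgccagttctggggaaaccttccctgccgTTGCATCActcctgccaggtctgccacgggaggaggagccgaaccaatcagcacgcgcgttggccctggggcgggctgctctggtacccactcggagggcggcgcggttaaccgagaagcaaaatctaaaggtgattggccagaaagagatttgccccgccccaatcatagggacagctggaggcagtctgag

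The supplied gene checks the labels. Creb3l3 read 6.73, 7.25 and 7.58 with AAV-CREB-H-ΔTC, against 6.55, 5.93 and 6.40 with AAV-GFP, on the log2 scale of the deposited signals. These groups did not overlap and lay in the direction of the labels, although the limma adjusted p was 0.647. On that side 5.23% of all probe sets did not overlap. The AAV-GFP values lay above the array medians given below, although these mice are knockouts. What part of the Creb3l3 RNA the probe set reads was not examined. Apoa4, an apolipoprotein and known CREB-H target, was higher by 3.70 (SE 0.18, limma adjusted p = 0.00786). The difference lay between 3.50 and 3.86 under all alternatives, but the limma adjusted p was 0.243 with the replicate number as a block and 0.516 over the 4 arrays without Y-linked signal (defined next). With 1 array left out it was 0.0552 to 0.136 in 5 of 6 fits and 0.00992 without CREB-H replicate 2. Replicate 3 of each group carried signal from Y-linked genes (means of 7.67 and 7.83) that the other 4 arrays did not show (3.15 to 3.39). Xist, an X-linked RNA typical of females, read 10.83 to 11.35 on those 4 arrays. It read 3.75 on CREB-H replicate 3 and 4.43 on GFP replicate 3. Replicate 3 of each group thus had a male-type pattern and the other arrays a female-type one, although no label states the sex of any mouse. Array medians lay between 4.98 and 5.01. Hepatocyte markers (Alb, Ttr, Serpina1a, Hnf4a and Cps1) were present on all arrays, with a mean of 12.1 to 12.3 in both groups. Kupffer cell markers averaged 8.44 to 9.32 with AAV-CREB-H-ΔTC and 8.00 to 9.02 with AAV-GFP. All 5 of them were higher with AAV-CREB-H-ΔTC and none passed the test. Of 5 lymphocyte markers 3 were higher, with Cd79a (0.57) and Ms4a1 (0.38) without overlap between the groups. Cd8a was level (0.0005), Cd3e (-0.14) and Cd3g (-0.30) were lower, and the median of the 5 was 0.0005. Of 4 cholangiocyte markers 3 were higher. Krt19 was higher (0.38) and Sox9 lower (-0.36), both without overlap, as were 12.3% of all probe sets. None of these passed, and the part of any cell type in the values below was not tested. In whole liver, fewer cells of a type and less RNA per cell cannot be told apart.

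The comparison asks which stress response genes differ in a liver that has received the active factor. No member of the list passed. Of the 32 genes, 16 were higher and 16 lower with AAV-CREB-H-ΔTC, and the median log2 difference was -0.005, beside -0.015 for all 41345 probe sets. The median size of a difference without regard to sign was 0.13 for the list and 0.12 for all probe sets. With limma and Benjamini-Hochberg adjustment over all probe sets, 0 of 32 passed at 0.05, against 0.00484% of all probe sets, and the lowest adjusted p among the 32 was 0.676. At an unadjusted p below 0.05 there were 3 of 32 (Atf5 and Chac1 higher, Ddit3 lower), which is 9.38%, beside 6.89% of all probe sets (2.93% higher and 3.97% lower). With 1 probe set for each of the 22180 genes, as the 32 have, the share was 5.73% (730 genes higher and 540 lower) and the median difference 0.003. Under quantile normalization 1397 of all probe sets were higher and 1403 lower at that p. The groups did not overlap in 5 of 32 genes (15.6%), beside 12.3% of all probe sets (5.23% higher and 7.1% lower). Those were Atf5, Chac1 and Aldh18a1 on the higher side, and Ddit3 and Psph on the lower side.

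**Figure D1:**
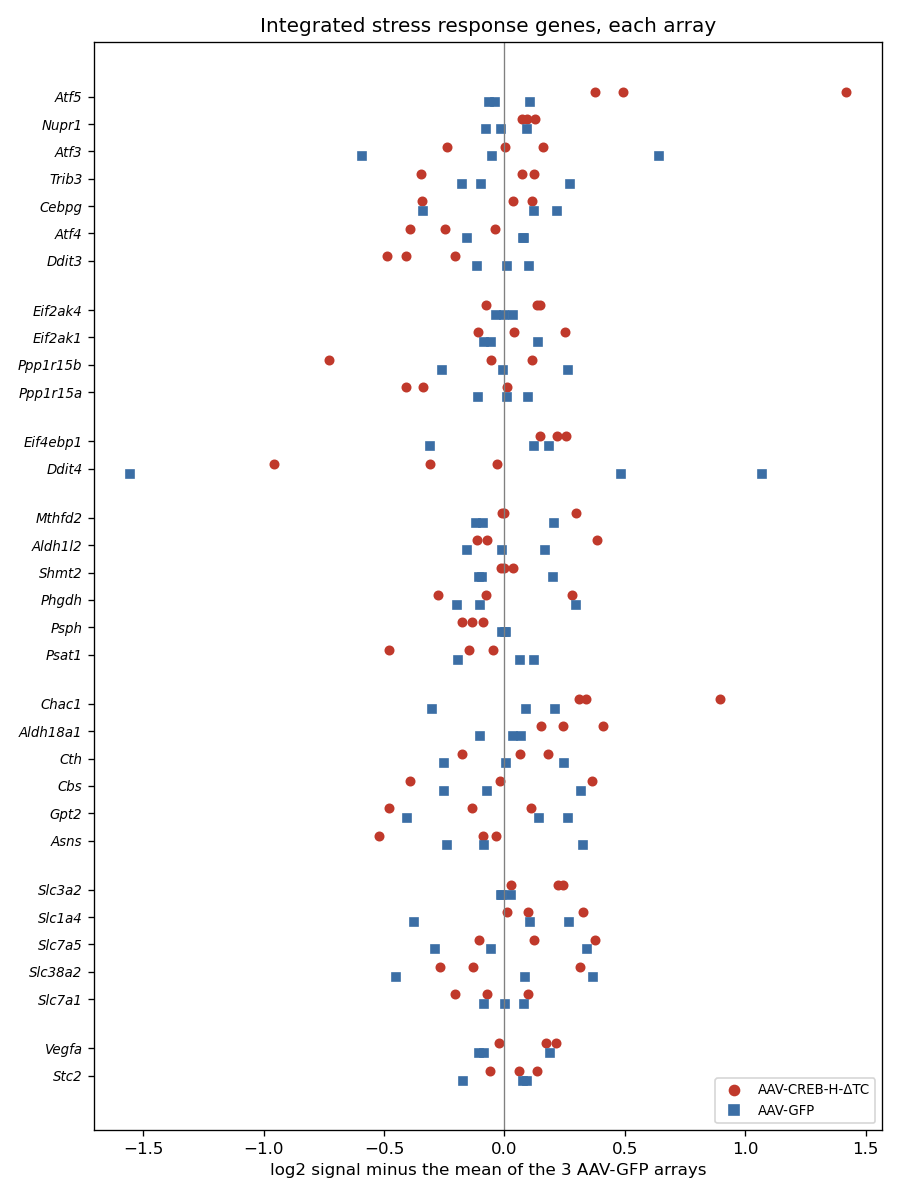
Log2 signal of each of the 32 genes on each of the 6 arrays, minus the mean of the 3 AAV-GFP arrays of that gene (x axis); circles are AAV-CREB-H-ΔTC arrays and squares AAV-GFP arrays, and genes are grouped by role. In 27 of the 32 genes the circles and squares overlap, and Ddit4 spans the widest range.

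The intervals state how large a difference these 6 arrays leave room for. In 29 of the 32 genes the 95% interval of the log2 difference lay within -1 and 1, so that a 2-fold difference in either direction fell outside it. The exceptions were Atf5, Chac1 and Ddit4. In 20 of 32 the interval lay within a 1.5-fold difference in either direction. Of all 41345 probe sets, 37518 had an interval within -1 and 1, and 27702 had one within a 1.5-fold difference. The median SE was 0.16 for the list and 0.14 for all probe sets.

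**Figure D2:**
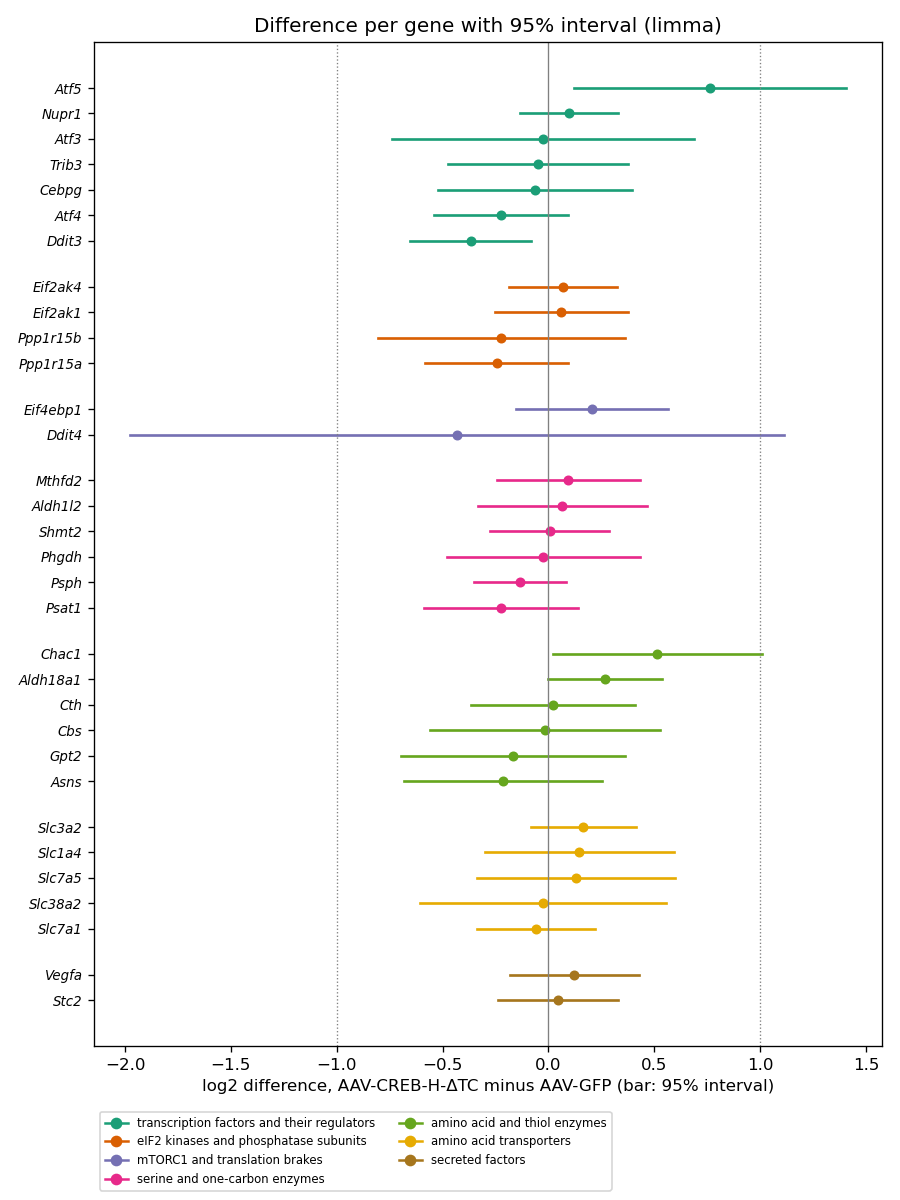
Log2 difference of each gene, AAV-CREB-H-ΔTC minus AAV-GFP (x axis, point), with its 95% interval from limma (bar); dotted lines mark -1 and 1 and colours mark roles. The intervals of Atf5, Chac1 and Ddit3 exclude 0 before adjustment, and that of Ddit4 runs from -1.98 to 1.11.

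Among the transcription factors and their regulators, 2 of 7 were higher and 5 lower, and 0 of 7 passed. Atf4 (probe set 17313100, Entrez 11911), the central factor, read 7.61, 7.75 and 7.96 with AAV-CREB-H-ΔTC, against 8.08, 7.84 and 8.08 with AAV-GFP. Its log2 difference was -0.23 (SE 0.13, 95% interval -0.54 to 0.09; limma adjusted p = 0.815). CREB-H replicate 3 stood above GFP replicate 2, so the groups overlapped.

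Ddit3 (probe set 17237978), which encodes CHOP, a C/EBP-related factor tied to cell death under long stress, read 6.60, 6.39 and 6.31 with AAV-CREB-H-ΔTC, against 6.91, 6.82 and 6.69 with AAV-GFP. Every CREB-H array lay below every GFP array. The difference of -0.37 (SE 0.12) is a ratio of 0.775 with a 95% interval of 0.635 to 0.945. It did not pass (limma adjusted p = 0.676), and the exact two-sided permutation p of 0.1 is the smallest that 3 against 3 arrays allow. Between the arrays with Y-linked signal the difference was -0.37, and among the other 4 it was -0.36.

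Atf5 (probe set 17490391) encodes a factor related to ATF4 that is itself translated under eIF2 phosphorylation and takes part in the mitochondrial stress response. It read 8.65, 8.77 and 9.70 with AAV-CREB-H-ΔTC, against 8.24, 8.21 and 8.38 with AAV-GFP. All 3 CREB-H arrays lay above the GFP arrays, and replicate 3, the array with Y-linked signal, was far above its group. The log2 difference was 0.76 (SE 0.27), a 1.70-fold higher signal with a 95% interval of 1.09 to 2.65. It did not pass (limma adjusted p = 0.693; exact permutation p = 0.1). Without that array the difference was 0.43.

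The other 4 genes of this group overlapped between the groups. Trib3, a pseudokinase that ATF4 and CHOP activate and that in turn restrains ATF4, read 5.55, 5.13 and 5.60 with AAV-CREB-H-ΔTC, against 5.38, 5.30 and 5.75 with AAV-GFP. Its difference was -0.05 (SE 0.18). Atf3, a stress-induced repressor, ranged from 6.26 to 6.66 with AAV-CREB-H-ΔTC and from 5.91 to 7.14 with AAV-GFP, a wider spread in the second group. Cebpg, a partner of ATF4 on composite elements, differed by -0.06 (SE 0.19), and the chromatin-bound stress protein gene Nupr1 by 0.10 (SE 0.10). Atf3, Trib3 and Nupr1 carry the composite core shown above.

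**Figure D3:**
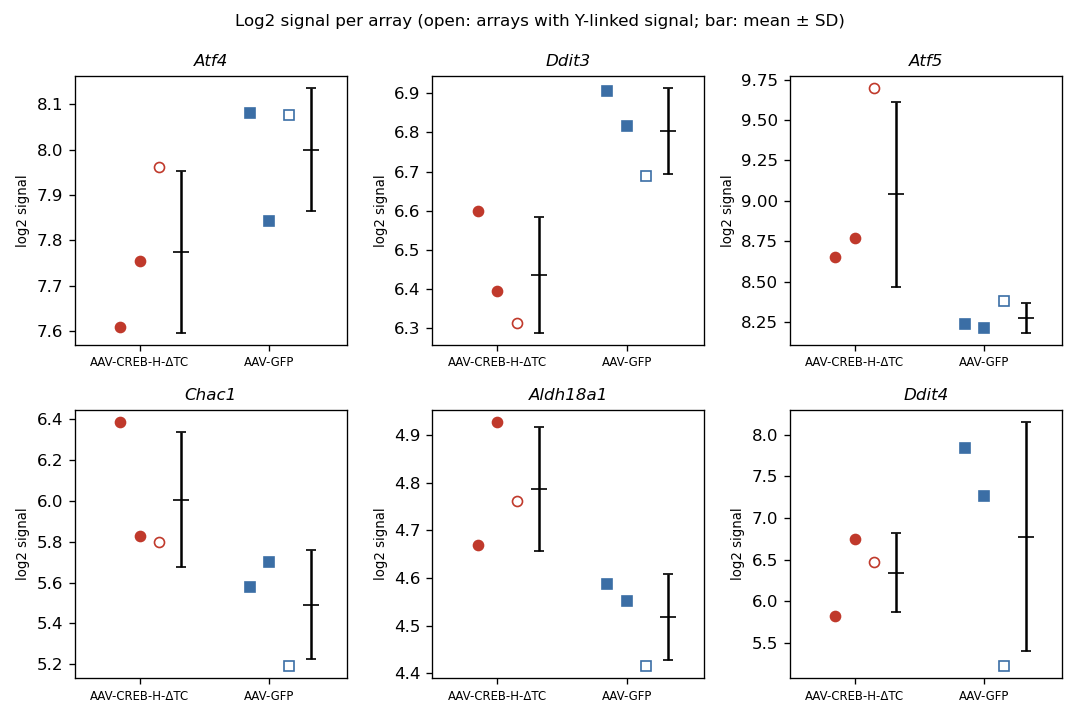
Log2 signal (y axis, its own scale per panel) of 6 genes on each array, AAV-CREB-H-ΔTC left and AAV-GFP right; open symbols are the arrays with Y-linked signal and black bars are the mean ± SD of 3 arrays. Ddit3, Atf5, Chac1 and Aldh18a1 do not overlap between the groups, while Atf4 and Ddit4 do.

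Of the kinases and phosphatase subunits that set the phosphorylation of eIF2, 0 of 4 passed, with 2 higher and 2 lower. Eif2ak1, which encodes the heme-regulated kinase HRI, ranged from 8.84 to 9.20 with AAV-CREB-H-ΔTC and from 8.86 to 9.09 with AAV-GFP (difference 0.06, SE 0.13). Eif2ak4, which encodes GCN2, the sensor of uncharged transfer RNA, ranged from 6.02 to 6.24 with AAV-CREB-H-ΔTC and from 6.06 to 6.13 with AAV-GFP (difference 0.07, SE 0.11). Both intervals lay within a 1.5-fold difference in either direction.

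Ppp1r15a encodes GADD34, the stress-induced subunit that brings a phosphatase to eIF2 and closes the response. It read 6.10, 6.03 and 6.45 with AAV-CREB-H-ΔTC, against 6.54, 6.33 and 6.45 with AAV-GFP. Replicates 1 and 2 of the CREB-H group were below all GFP arrays and replicate 3 was not. The difference was -0.25 (SE 0.14). Ppp1r15b, the constitutive counterpart, differed by -0.22 (SE 0.25), and its CREB-H replicate 3, at 8.34, was the lowest of the 6 arrays.

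Ddit4 (probe set 17241032) encodes REDD1, an inhibitor of the growth kinase complex mTORC1 that stress and glucocorticoids induce. It read 5.82, 6.75 and 6.47 with AAV-CREB-H-ΔTC, against 7.84, 7.26 and 5.22 with AAV-GFP. GFP replicates 1 and 2 were above all CREB-H arrays and GFP replicate 3 was below all of them. The within-group SD of 1.03 was the largest of the 32 genes, and the difference was -0.43 (SE 0.65, limma adjusted p = 0.933). Without GFP replicate 3 it was -1.21, and without GFP replicate 1 it was 0.10. Eif4ebp1, which encodes a translation repressor controlled by mTORC1, read 8.48, 8.52 and 8.41 with AAV-CREB-H-ΔTC, against 8.39, 7.95 and 8.45 with AAV-GFP. Its difference of 0.21 (SE 0.15) was 0.05 without GFP replicate 2, the lowest array.

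Enzymes of serine synthesis and mitochondrial one-carbon metabolism were measured for 6 of 6 genes, 3 higher and 3 lower, and 0 passed. The serine pathway runs from Phgdh through Psat1 to Psph. Phgdh differed by -0.02 (SE 0.19) and Psat1 by -0.22 (SE 0.15), and in both genes the groups overlapped. The signal of Psat1 was low: it read 3.85 to 4.46, below the array medians, and was among the dimmest 50% of probe sets. The difference of Psat1 was -0.32 without GFP replicate 2 and -0.10 without CREB-H replicate 2.

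Psph, the phosphatase of the last step, read 5.48, 5.39 and 5.43 with AAV-CREB-H-ΔTC, against 5.56, 5.58 and 5.57 with AAV-GFP. The groups did not overlap, by a small distance: the difference was -0.13 (SE 0.09, limma adjusted p = 0.846), and the within-group SD of 0.03 was the smallest of the list. Shmt2, which passes a one-carbon unit from serine to folate in mitochondria, read 9.76, 9.75 and 9.79 with AAV-CREB-H-ΔTC, against 9.67, 9.65 and 9.96 with AAV-GFP. Its difference was 0.01 (SE 0.12). Mthfd2 and Aldh1l2, mitochondrial folate enzymes downstream of it, differed by 0.09 (SE 0.14) and 0.07 (SE 0.17), and both were highest on CREB-H replicate 3. Both were also among the dimmest 50% of probe sets.

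Among enzymes of amino acids and thiols, 3 of 6 measured genes were higher and 3 lower. Chac1 (probe set 17374807) encodes an enzyme that degrades glutathione and is a marker of ATF4 and CHOP activity in cell culture. It read 6.39, 5.83 and 5.80 with AAV-CREB-H-ΔTC, against 5.58, 5.70 and 5.19 with AAV-GFP. All CREB-H arrays lay above all GFP arrays, with replicate 1 highest. The difference of 0.51 (SE 0.21) is a 1.43-fold higher signal with a 95% interval of 1.01 to 2.01, and it did not pass (limma adjusted p = 0.717; exact permutation p = 0.1). Without CREB-H replicate 1 it was 0.32.

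Aldh18a1, which starts proline synthesis from glutamate, read 4.67, 4.93 and 4.76 with AAV-CREB-H-ΔTC, against 4.59, 4.55 and 4.42 with AAV-GFP. The groups did not overlap, and the difference was 0.27 (SE 0.11, limma adjusted p = 0.729; exact permutation p = 0.1). Its signal was low: all its values lay below the array medians, and it was among the dimmest 50% of probe sets. Asns, the asparagine synthetase and a widely used readout of ATF4, read 4.90, 5.33 and 5.39 with AAV-CREB-H-ΔTC, against 5.34, 5.18 and 5.75 with AAV-GFP. The groups overlapped and the difference was -0.21 (SE 0.20). Without GFP replicate 3, the highest array, it was -0.05.

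The remaining enzymes overlapped between the groups. Cth and Cbs, which make cysteine from homocysteine, differed by 0.02 (SE 0.16) and -0.02 (SE 0.23). Gpt2, a mitochondrial alanine transaminase, read 10.34, 10.68 and 10.93 with AAV-CREB-H-ΔTC, against 11.08, 10.96 and 10.41 with AAV-GFP. Its replicate 3 stood highest in the first group and lowest in the second, and the difference was -0.17 (SE 0.22). It was -0.01 without CREB-H replicate 1 and -0.37 without GFP replicate 3.

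Of the 5 amino acid transporters, 3 were higher and 2 lower, with a median of 0.13, and 0 passed. Slc3a2, the heavy chain shared by several exchangers, read 8.93, 8.94 and 8.73 with AAV-CREB-H-ΔTC, against 8.69, 8.73 and 8.69 with AAV-GFP. Its CREB-H replicates 1 and 2 stood above the GFP arrays, and replicate 3 lay level with the highest of them. The difference was 0.16 (SE 0.10). Slc7a5, its partner in the leucine exchanger LAT1, read 6.07, 5.82 and 5.59 with AAV-CREB-H-ΔTC, against 5.41, 5.64 and 6.04 with AAV-GFP, and the groups overlapped. The cationic transporter gene Slc7a1 differed by -0.06 (SE 0.12), and it was among the dimmest 50% of probe sets. The neutral transporter genes Slc38a2 and Slc1a4 differed by -0.03 (SE 0.24) and 0.15 (SE 0.19).

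Both genes of secreted proteins were near 0. Stc2, a stanniocalcin that the response induces in cultured cells, differed by 0.04 (SE 0.12). The angiogenic factor gene Vegfa read 9.97, 9.92 and 9.73 with AAV-CREB-H-ΔTC, against 9.67, 9.64 and 9.94 with AAV-GFP, a difference of 0.12 (SE 0.13). Its replicate 3 was lowest in the first group and highest in the second.

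Genes were also set against the promoter sequences. The 6 measured genes with the composite core (Asns, Atf3, Chac1, Nupr1, Slc1a4 and Trib3) had a median difference of 0.04, from -0.21 to 0.51, with 3 higher and 3 lower. The 21 genes with a window and no match had a median of -0.02, from -0.43 to 0.76, with 9 higher and 12 lower. These are descriptions of 2 sets of genes, and the difference between them was not tested.

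Several genes had differences of opposite sign in the replicate 3 arrays and in the rest. Ddit4 was higher by 1.24 between the 2 arrays with Y-linked signal and differed by -1.27 among the other 4. For Gpt2 the values were 0.52 and -0.51, for Aldh1l2 0.54 and -0.17, and for Slc7a5 -0.45 and 0.42. Atf5 was higher in both, by 1.31 and 0.49. An interaction of group with Y-linked signal, fitted over all probe sets with 2 residual degrees of freedom and chosen after the data were seen, passed for 0 of 32 genes and 0 of 41345 probe sets (0%, limma). Its adjusted p was 0.637 for Ddit4 (unadjusted 0.0126) and 0.635 for Atf5 (unadjusted 0.0122). At an unadjusted p below 0.05 there were 5 of 32 (Atf5, Ddit4, Gpt2, Aldh1l2 and Slc7a5), which is 15.6%, beside 6.9% of all probe sets. With 1 such array in each group, sex and individual animal cannot be told apart.

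**Figure D4:**
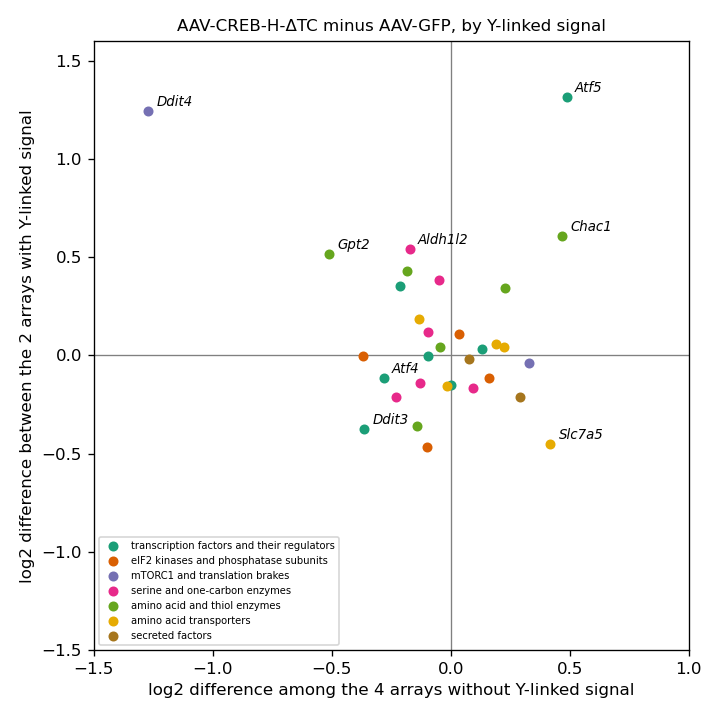
Log2 difference, AAV-CREB-H-ΔTC minus AAV-GFP, of the 32 genes between the 2 arrays with Y-linked signal (y axis) and among the 4 other arrays (x axis); colours mark roles. Ddit4 lies at the upper left with 1.24 and -1.27, while Atf5 and Chac1 lie at the upper right and Ddit3 at the lower left.

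Other genes of the pathway were read from 6 further lists, of which 79 of 87 genes were measured, and 0 of the 79 passed (lowest limma adjusted p 0.647; 7 at an unadjusted p below 0.05, which is 8.86%, beside 6.89% of all probe sets). One was a chosen list of 12 cytosolic aminoacyl-tRNA synthetases, not the whole class, which charge transfer RNAs and many of which ATF4 activates. The mean signal was lower with AAV-CREB-H-ΔTC in 11 of the 11 measured, and 0 of them passed. Their median difference was -0.24, from -0.44 to -0.05, and 53.7% of all probe sets (49.2% of genes with 1 probe set each) were lower. In 5 of the 11 the groups did not overlap (45.5%, beside 7.1% of all probe sets on the lower side). Isoleucyl-tRNA synthetase (Iars) read 8.84, 9.10 and 9.23 with AAV-CREB-H-ΔTC, against 9.40, 9.46 and 9.62 with AAV-GFP. Its difference was -0.44 (SE 0.14, limma adjusted p = 0.647), and that of the leucine enzyme gene Lars was -0.34 (SE 0.15, limma adjusted p = 0.741). The median of the synthetases was -0.15 without CREB-H replicate 1. No test was run on the list as a whole.

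Of 18 other ATF4 targets, 10 were higher and 8 lower, with a median of 0.11 that was -0.01 without GFP replicate 3. Fgf21, a fasting and stress hormone that is also a known CREB-H target, read 7.27, 6.63 and 10.30 with AAV-CREB-H-ΔTC, against 5.24, 4.99 and 5.71 with AAV-GFP (limma adjusted p = 0.667). The difference of 2.76 (SE 0.89) was 1.64 without CREB-H replicate 3, the same array on which Atf5 was highest. The mitochondrial folate enzyme gene Mthfd1l read 6.04, 5.90 and 5.74 with AAV-CREB-H-ΔTC, against 5.37, 5.39 and 5.62 with AAV-GFP, without overlap. Its difference was 0.44 (SE 0.13, limma adjusted p = 0.647).

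In the list of other eIF2 kinases and of eIF2 and eIF2B subunits, 4 of 10 genes were higher and 6 lower, with a median of -0.03. The list also held Eif2a, whose product is not an eIF2 subunit, and Dnajc3, whose product inhibits eIF2 kinases. The eIF2 subunit genes Eif2s1 and Eif2s3x had no probe set of their own. Eif2ak3, which encodes PERK, the kinase of the endoplasmic reticulum, read 7.40, 6.85 and 7.54 with AAV-CREB-H-ΔTC, against 6.76, 7.03 and 6.78 with AAV-GFP. The groups overlapped through CREB-H replicate 2, and the difference was 0.41 (SE 0.20). Eif2b3, a subunit of the exchange factor that phosphorylated eIF2 blocks, differed by -0.31 (SE 0.12) without overlap.

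Other amino acid transporters were higher in 11 of 15, with a median of 0.12 that was 0.02 without GFP replicate 3. Slc7a8, the light chain of the neutral exchanger LAT2, differed by 0.75 (SE 0.26), and Slc7a2, a cationic amino acid transporter of hepatocytes, by 0.37 (SE 0.14). In Slc7a8 the arrays with Y-linked signal differed by 0.03, and the 4 others by 1.11. Other serine, glycine and one-carbon genes had a median of -0.05 (6 of 14 higher). Dld, a subunit of the glycine cleavage system, differed by 0.18 (SE 0.11). Ahcy, which hydrolyses S-adenosylhomocysteine, differed by -0.58 (SE 0.37), and by -0.13 without CREB-H replicate 2. It had 2 probe sets, and the values given are those of the brighter. Under the alternatives that did not leave out a single array, its difference ran from -0.96 to -0.09. The other arms of the unfolded protein response had a median of 0.03 (6 of 11 higher). Their chaperone gene Hspa5 differed by -0.31 (SE 0.19) and the cofactor gene Dnajb9 by -0.31 (SE 0.13).

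**Figure D5:**
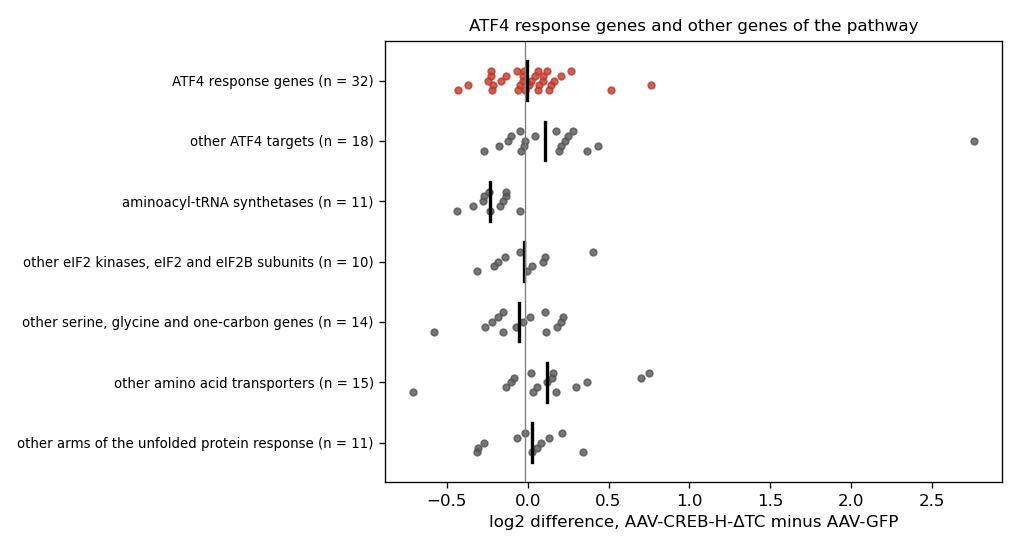
Log2 difference, AAV-CREB-H-ΔTC minus AAV-GFP (x axis), of each gene of the ATF4 response list and of 6 further lists of the pathway; black bars are medians and the grey line is the median of all probe sets. The 11 measured synthetases of the list lie below 0, and the point at 2.76 is Fgf21.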

How the data were processed

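Per the submitters' processing notes, the authors used the Transcriptome Analysis Console, and they deposited a log2 signal for each probe set and array. How probes were summarised, normalized or filtered, and with which version, is not stated in those notes. That the scale is log2 was read from the range (1.42 to 13.9) and the near-equal medians. No scanner file was used here, so background was not examined, and small values may understate differences. The number of arrays limits the precision.

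Genes were named from GEO's platform annotation, with the brightest probe set over 6 arrays taken for a gene (23521 probe sets had 1 gene, 1814 several, and 16010 were not listed). Of 162 genes on all lists, 150 were measured, 1 of them through its Entrez ID (Ero1l). All 41345 probe sets were fitted with limma 3.58.1 in R 4.3.3 (group as the single term, two-sided, Benjamini-Hochberg adjustment, threshold 0.05) and no further normalization. SEs and 95% intervals are those of the moderated difference. Tested on simulated data, the fit called 4% of log2 changes of 0.5, 42% of 1, 86% of 2 and 92% of 4. The changes were planted only in probe sets brighter than the median, with normal noise. Psat1, Mthfd2, Aldh1l2, Aldh18a1 and Slc7a1 were dimmer than that, so these rates do not cover them. Smaller changes were not simulated, and 27 of the 32 genes differed by less than 0.25. Motifs were searched and figures drawn in Python 3.11.15 with matplotlib 3.10.9.

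The genes and lists were chosen with earlier results of these data known. All 33 listed genes are named. Of each further list the 2 genes with the lowest unadjusted p are named, with Creb3l3 and Apoa4 as the check of the labels. The alternatives were quantile normalization, median centring, filters on the dimmest 25% or 50% of probe sets, robust limma-trend, array weights, a block for the replicate number, and fits without each single array. Others were a term for arrays whose mean of Kdm5d, Eif2s3y and Uty was above 5 (called Y-linked signal), the 4 arrays below it, and averaging all probe sets of a gene.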

Additional observations from a re-analysis of the deposited data

How the results depend on the processing

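Under all 16 alternatives none of the listed genes tested passed, with a lowest adjusted p between 0.436 (term for Y-linked signal) and 0.881 (without GFP replicate 1). None of the further pathway genes tested passed. The filter on the dimmest 50% of probe sets left 27 of the 32 genes. It removed Psat1, Mthfd2, Aldh1l2, Aldh18a1 and Slc7a1, which were not tested there. At an unadjusted p below 0.05 there were 0 of the 32 without GFP replicate 1 (5.74% of all probe sets) and up to 6 over the arrays without Y-linked signal (8.07% of all probe sets), against 3. The median difference of the 32 genes was -0.0476 when the 2 arrays with Y-linked signal were left out, against -0.005 over all arrays, and lay between -0.002 and 0.02 with 1 array left out. Quantile normalization moved the median of all probe sets to 0.005 and centring to 0.003. Same-numbered arrays correlated by 0.0785, 0.127 and 0.330 in their deviations from the group means, and different-numbered arrays by -0.232 to 0.159. The 0.330 was that of the replicate 3 arrays, which share the Y-linked signal. These values do not decide whether equal numbers mark pairs, and the main fit did not take them as pairs. With the replicate number as a block 0 of 32 passed (lowest limma adjusted p 0.548) and the median stayed at -0.005.

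The sign held in 15 of 32 genes, among them Atf4, Atf5, Ddit3, Chac1, Aldh18a1, Psph and Asns, but in 11 of the 15 leaving out 1 array moved the difference by over 1.5 times. It turned in 17, none of them past the threshold. Median centring gave 0.0018 for Cbs. Array weights gave 0.0021 for Trib3, -0.0041 for Aldh1l2 and -0.0484 for Cth. The 4 arrays without Y-linked signal gave 0.0004 for Trib3, -0.05 for Mthfd2, -0.17 for Aldh1l2 and -0.18 for Cth. With 1 array left out, the differences ran from -0.32 to 0.30 for Atf3, -0.23 to 0.0749 for Cebpg, -0.14 to 0.10 for Trib3, -0.0338 to 0.15 for Eif2ak1, -0.39 to 0.0295 for Ppp1r15b, -1.21 to 0.10 for Ddit4, -0.18 to 0.12 for Phgdh, -0.0469 to 0.11 for Shmt2, -0.006 to 0.20 for Mthfd2, -0.0944 to 0.16 for Aldh1l2, -0.10 to 0.14 for Cth, -0.21 to 0.17 for Cbs, -0.14 to 0.013 for Slc7a1, -0.0137 to 0.30 for Slc7a5, -0.25 to 0.16 for Slc38a2, -0.0423 to 0.28 for Slc1a4 and -0.0403 to 0.10 for Stc2. The cause of these turns was not tested. The alternatives for the further lists were chosen after the data were seen.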

Other observations

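GFP replicate 3, the lowest array for Ddit4, was also the lowest for some genes outside the list. Cdkn1a, the cell cycle inhibitor p21 and a gene of the further ATF4 list, read 7.59, 9.02 and 8.58 with AAV-CREB-H-ΔTC, against 10.12, 9.67 and 6.21 with AAV-GFP. It was thus lowest on the same array as Ddit4 and highest on GFP replicate 1, as Ddit4 was. Got1, a cytosolic transaminase of the same list, read 12.11, 12.25 and 12.17 with AAV-CREB-H-ΔTC, against 12.44, 12.48 and 10.98 with AAV-GFP. The same array was lowest for the endothelial marker Lyve1 (8.79, against 9.78 to 10.17 on the other 5) and the Kupffer cell marker Adgre1 (6.44, against 7.35 to 8.24 on the other 5). The other endothelial markers did not all follow Lyve1. Stab2 was highest on that array (9.11), Clec4g was lowest (9.67), and Pecam1 and Fcgr2b were lowest on GFP replicate 1. The other Kupffer cell markers (Clec4f, Vsig4, Cd5l and Timd4) were lowest on GFP replicate 3. Cdkn1a, Got1, Lyve1 and Adgre1 were chosen after their values were seen, and none passed (limma adjusted p = 0.978 for Cdkn1a and 0.950 for Got1).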
